A study of Mus musculus with 4 samples.

Results

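Fbln2, Gpc3, Scin and Mst1r encode a matrix protein, a glypican, an actin-severing protein and a receptor kinase. These 4 genes, of 37325 represented on the array, were chosen by their hippocampal levels, which were higher in Rp58 hetero-KO mice than in wild-type (WT) mice at both ages studied. The genotype differences below are the values that chose them, and are given as a description with no test. The differences were 2.16-fold to 2.53-fold at 18 months and 1.86-fold to 2.94-fold at 4 months. In the 18-month columns of the authors' deposited table, Fbln2 and Mst1r were higher by less, 1.88-fold and 1.58-fold, and Gpc3 and Scin were not higher.

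RNA came from the hippocampus of 4 groups: Rp58 hetero-KO at 18 months, WT at 18 months, Rp58 hetero-KO at 4 months and WT at 4 months. The titles of the older groups give 1.5 years and their descriptions a range of 12 to 18 months. For each group, RNA of 3 samples was pooled, and 200 ng of the pool was labelled with Cy3 for 1 Agilent array, so no group had a replicate array and no value below has an SD. Sex, strain and the deleted part of the gene are not stated in those labels, and sex-linked genes, given below, differed between the pools. In bulk tissue, fewer cells of a type and less RNA per cell cannot be told apart.

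Rp58 (current symbol Zbtb18) is a zinc finger repressor with a BTB domain that is needed for cortical and hippocampal neurons to form, and it is known to silence genes of progenitors there. Fibulin-2 is a secreted glycoprotein that binds basement membrane and elastic fibre proteins. Glypican-3 carries heparan sulfate chains on a lipid anchor at the cell surface, where it binds hedgehog and Wnt ligands. Its gene is X-linked. Scinderin, also called adseverin, is a calcium-dependent actin-severing protein of the gelsolin family, known from secretory cells. Mst1r, also called RON, is a receptor tyrosine kinase of the MET family whose ligand is macrophage stimulating protein, encoded by Mst1.

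The 4 genes were represented by 5 probes of 60 bases, each on 1 spot. The first 30 bases of each probe are shown, 5′ to 3′, because they define which transcripts the values count, and all positions of probes are in build mm9.
Fbln2: ctcaactatggctacagctgacattccatt
Gpc3, first probe: gaacatggttgtcatgtttccctcttttat
Gpc3, second probe: gctctcagttattgggagtgaactttgcat
Scin: catctcaagtcaatgccacttggatgccat
Mst1r: cagcatgagccagtgacatttttgtagcat
The Fbln2 probe lies on the plus strand at chr6:91222118-91222177 and is listed for 2 RefSeq transcripts. The first Gpc3 probe is on the minus strand at chrX:49625627-49625686 and is listed for the RefSeq mRNA, while the second, at chrX:49740892-49740951, is listed for a testis cDNA clone alone. The Scin probe is on the minus strand at chr12:40786517-40786576 and is listed for 2 RefSeq transcripts. The Mst1r probe, on the plus strand at chr9:107822566-107822625, is listed for 3 of them. None of these probes can separate the transcripts it is listed for.

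The 75th percentile of the spot signal ranged from 1714 to 2111 over the 4 arrays, and 77.9% to 81.9% of spots were well above background. All arrays lay on 1 slide and were scanned on the same day, so place on the slide and group cannot be told apart. All 10 pyramidal neuron and all 10 dentate granule cell markers were well above background on every array. So were all 10 choroid plexus and all 8 striatum markers, so detection does not check the labelled tissue. Zbtb18 itself had levels of 21.4 in hetero-KO and 18.9 in WT at 18 months, and 15.2 in hetero-KO and 17.5 in WT at 4 months. Its log2 differences of 0.18 and -0.20 had opposite signs, and as the deleted part is not stated, the probe does not check the labels. A level is the spot signal divided by the 75th percentile of its array, and it is comparable between arrays for one probe but not between probes.

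Fbln2 was higher in hetero-KO at both ages. Its level was 1.03 in hetero-KO and 0.407 in WT at 18 months, and 1.26 in hetero-KO and 0.427 in WT at 4 months. The hetero-KO arrays thus lay above both WT arrays, and the WT arrays were close to each other. The fold was 2.53 at 18 months and 2.94 at 4 months, or 1.34 and 1.56 on the log2 scale. The scanner software gives an error of 0.20 for such a difference, which covers the spot and not the mice.

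Gpc3 had the same order of levels by its first probe. The level was 0.374 in hetero-KO and 0.149 in WT at 18 months, and 0.455 in hetero-KO and 0.167 in WT at 4 months. The folds were 2.50 and 2.72, with log2 differences of 1.32 and 1.44. The second Gpc3 probe was not well above background on any of the 4 arrays, so it gives no fold and does not bear on the first.

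Scin was higher in hetero-KO at both ages and highest on the array of 18-month hetero-KO mice. Its level was 0.312 in hetero-KO and 0.145 in WT at 18 months, and 0.208 in hetero-KO and 0.0858 in WT at 4 months. In contrast to Fbln2 and Gpc3, the WT arrays differed from each other as well, and 18-month WT lay nearer to 4-month hetero-KO than to 4-month WT in log2 level. The folds were 2.16 and 2.42, with log2 differences of 1.11 and 1.27.

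Mst1r was higher in hetero-KO by more at 18 than at 4 months. Its level was 0.481 in hetero-KO and 0.194 in WT at 18 months, and 0.389 in hetero-KO and 0.209 in WT at 4 months. The folds were 2.49 and 1.86, and the log2 differences 1.31 and 0.90. The 18-month difference minus the 4-month difference was 0.42 for Mst1r, against -0.22 for Fbln2, -0.12 for Gpc3 and -0.17 for Scin, and these values have no test because the design leaves no error to set them against.

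All 4 genes passed 2-fold at 18 months and 3 of them, without Mst1r, at 4 months. Of all genes measured on both arrays of an age, those higher by 2-fold or more made up 0.525% at 18 months and 0.690% at 4 months, and those lower by as much 0.612% and 0.634%. At least 2-fold higher at both ages were 14 of 27365 genes measured on all 4 arrays, or 0.0512%, and Fbln2, Gpc3 and Scin are among them by choice. Higher at both ages by at least 0.90, the smallest difference of the 4 genes, were 18 genes, or 0.0658%, which leaves 14 others at that size. The median log2 difference over those genes was -0.0074 at 18 months and -0.021 at 4 months, values that the scaling of each array to its 75th percentile holds near 0.

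**Figure D1:**
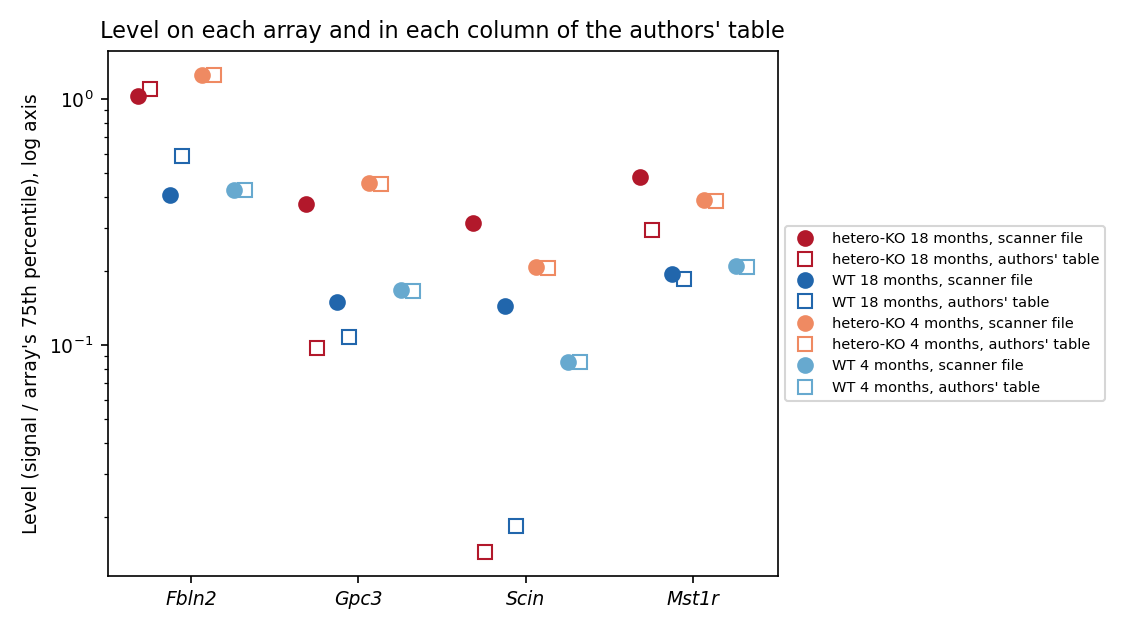
Levels of the 4 genes on a log axis, with hetero-KO in reds and WT in blues, filled circles for the scanner files and open squares for the authors' table. The circles of hetero-KO lie above those of WT at the same age for all 4 genes, and the 18-month squares leave the circles, most of all for Scin, where they sit at 0.0145 in hetero-KO and 0.0185 in WT.

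The authors' deposited table gave the same picture at 4 months and another one at 18 months. Its 4-month columns equalled a constant multiple of the scanner signal for 100% of spots, within 1%. Its 18-month columns equalled no scanner array, with correlations of log2 values of 0.981 to 0.985, so the arrays behind them are unknown. Their scale is a linear ratio with a 75th percentile near 1 and column medians of 0.0987 for hetero-KO and 0.0998 for WT at 18 months, and 0.103 for hetero-KO and 0.107 for WT at 4 months.

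In the 18-month columns of the authors' deposited table, Fbln2 stood at 1.10 in hetero-KO and 0.584 in WT, 1.88-fold higher. Mst1r stood there at 0.294 in hetero-KO and 0.186 in WT, 1.58-fold higher. Both kept their direction with a smaller difference, of 0.91 and 0.66 on the log2 scale. Gpc3 stood at 0.0973 in hetero-KO and 0.107 in WT, a log2 difference of -0.14. Scin stood at 0.0145 in hetero-KO and 0.0185 in WT, a log2 difference of -0.35. None of the 4 genes reached 2-fold there, where 2.40% of all genes, with no filter on dim probes, were at least 2-fold higher at 18 months and 2.28% at 4 months. For Scin, the scanner level exceeded the table's value 21.6-fold in hetero-KO and 7.84-fold in WT at 18 months, and for Gpc3 the ratios were 3.84 and 1.39.

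Marker lists also differed between the sources at 18 months. The summed value of 10 pyramidal neuron markers was 25.8 in hetero-KO and 24.5 in WT in the authors' table, whereas the scanner arrays gave 58.3 in hetero-KO and 56.3 in WT. For 10 choroid plexus markers the sums were 20.4 in hetero-KO and 38.3 in WT in the table, and 157 and 202 on the scanner arrays in the same order. The part of these differences in the values of Gpc3 and Scin was not tested.

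The age contrast was not used to choose the genes and was tested over both genotypes with an additive limma model of genotype and age, fitted to 29086 genes. It has 1 residual degree of freedom, so its p-values measure how these 4 pools vary, not how mice vary. None of the 4 genes passed an adjusted p of 0.05 with limma, and 2 of them, Gpc3 and Scin, had an unadjusted p under 0.05, as had 23.7% of all genes tested. Over all genes tested, 1.09% rose and 0.560% fell with age.

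Scin came nearest to the threshold. It was higher at 18 than at 4 months by 0.59 in hetero-KO and by 0.75 in WT on the log2 scale, and by 0.67 ± 0.09 (SE) over both (limma adjusted p = 0.0514). The limma adjusted p over the alternatives run on the scanner files ranged from 0.0309 to 0.571. Both genotypes showed the higher level at the older age. In the authors' table the age difference of Scin was -3.02 (limma adjusted p = 0.00624). The pools of the 2 ages also differed in marker genes on the scanner arrays. Of 6 microglia markers, 5 rose with age and none fell. Of 8 thalamus and habenula markers, 7 fell with age and none rose, among them Tnnt1 by a log2 difference of -2.81 (limma adjusted p = 0.00955) and Shox2 by -4.54 (limma adjusted p = 0.0317). Xist, the marker of the inactive X of females, differed by -5.40 with age (limma adjusted p = 0.0219) and was not well above background at 18 months. The part of these differences in the age values of the 4 genes was not tested.

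The other 3 genes had smaller age differences. Fbln2 differed by -0.29 in hetero-KO and by -0.070 in WT (-0.18 ± 0.08 SE over both, limma adjusted p = 0.256). Gpc3 differed by -0.28 in hetero-KO and by -0.17 in WT (-0.22 ± 0.08 SE over both, limma adjusted p = 0.188). Mst1r differed by 0.31 in hetero-KO and by -0.11 in WT, and by 0.10 ± 0.12 (SE) over both (limma adjusted p = 0.673). The WT differences of these 3 genes were within the spot error of 0.20 that the software gives, so the order of the WT arrays is not settled for them.

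**Figure D2:**
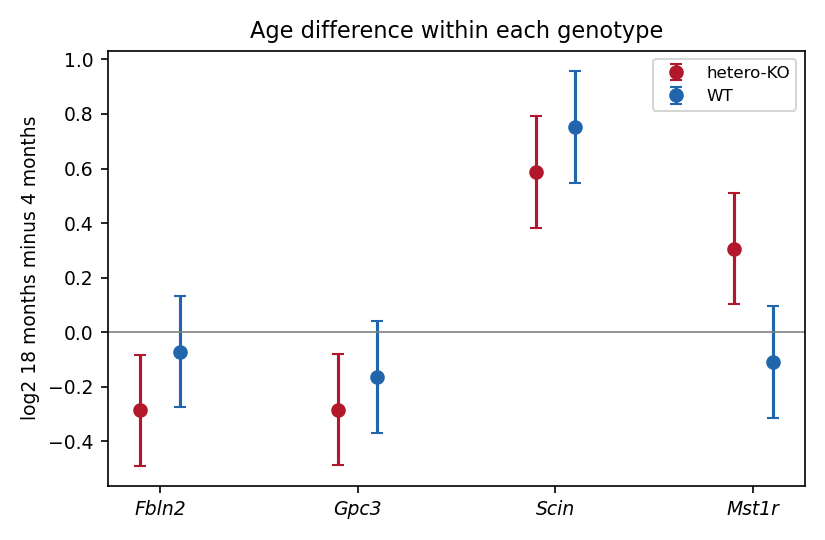
Log2 difference of 18 minus 4 months for each gene within hetero-KO (red) and within WT (blue), with bars for the spot error of the scanner software. Scin lies above 0 in both genotypes, at 0.59 in hetero-KO and 0.75 in WT.

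Gpc3 is X-linked, and the pools differed in several sex-linked genes, between genotypes at 4 months and between ages. Eif2s3y, a Y-linked gene, had levels of 1.33 in hetero-KO and 1.30 in WT at 18 months. At 4 months it was not well above background in hetero-KO and had a level of 0.673 in WT. Uty and Ddx3y had the same pattern of detection. The probe of Kdm5d, also Y-linked, did not follow these genes and so does not report on the Y chromosome here. It was well above background on every array, at 0.0845 in hetero-KO and 0.0880 in WT at 4 months. Xist, which coats and silences the inactive X of females, was not well above background at 18 months and had levels of 0.231 in hetero-KO and 0.164 in WT at 4 months. At 18 months, where Eif2s3y was close between genotypes on the scanner arrays, the Gpc3 difference was 1.32. In the 18-month columns of the authors' table, Eif2s3y stood at 0.00256 in hetero-KO and 0.605 in WT, Xist at 0.233 in hetero-KO and 0.153 in WT, and the Gpc3 difference was -0.14. By Xist, Eif2s3y, Uty and Ddx3y, the scanner arrays read as male for both 18-month pools, female for 4-month hetero-KO and mixed for 4-month WT. On these arrays, genotype at 4 months, and age, therefore cannot be told apart from sex for any of the 4 genes. In the authors' table, Uty too stood at 0.00162 in hetero-KO and 0.129 in WT at 18 months. Those columns read as female for hetero-KO and mixed for WT. Genotype in the 18-month columns of that table thus cannot be told apart from sex either, for any of the 4 genes. The part of sex in their values was not tested. The median log2 difference of 656 X-linked genes measured on all 4 arrays was -0.011 at 18 months and -0.0090 at 4 months.

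Markers of other cell types and regions differed between the pools too. Of 12 meningeal fibroblast markers, 10 were higher in hetero-KO at 18 months but only 1 at 4 months, with medians of 0.40 and -0.28 and summed levels of 91.2 in hetero-KO and 70.1 in WT at 18 months, and 70.3 in hetero-KO and 82.3 in WT at 4 months. All 8 striatum markers were higher at 4 months and 4 of 8 at 18 months, with medians of 1.55 at 4 and -0.024 at 18 months. Their summed levels were 22.9 in hetero-KO and 21.3 in WT at 18 months, and 51.1 in hetero-KO and 21.0 in WT at 4 months. All 10 choroid plexus markers were lower at both ages, with medians of -0.83 at 18 and -0.39 at 4 months. Of 10 dentate granule cell markers 8 were lower at both ages and none was higher at both. Over all genes measured on all 4 arrays, 34.9% were lower at both ages and 27.0% higher at both.

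All 6 microglia markers were higher at 18 months and 4 of 6 at 4 months, with medians of 0.19 and 0.050. Their summed level was 41.2 in hetero-KO and 36.3 in WT at 18 months, and 28.7 in hetero-KO and 27.7 in WT at 4 months. Endothelial and pericyte markers were mostly lower at 4 months, with medians of -0.22 and -0.17. At 18 months they were mostly higher, with medians of 0.036 and 0.042. Astrocyte and interneuron markers had medians of 0.048 and 0.027 at 18 months and of 0.0075 and 0.11 at 4 months. The medians at 18 and 4 months were 0.038 and -0.091 for oligodendrocytes, -0.22 and 0.053 for mossy cells, and 0.023 and -0.47 for thalamus and habenula. No marker of these lists was below background on all 4 arrays. The part of any of these cell types in the values of the 4 genes was not tested.

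Fbln2 and Gpc3 were each other's closest match in pattern over the 4 arrays. Likeness was measured as the Euclidean distance between log2 levels after subtracting each gene's own mean, among 19175 named genes that were well above background on every array. These levels hold the genotype difference that chose the 4 genes. Likeness among them, and to other genes higher at both ages, thus follows in part from that choice. Fbln2 and Gpc3 lay 0.093 apart, each ranking 1 for the other. Next for both came Neurog2, a proneural transcription factor known as a target of this repressor in the cortex, at 0.13 from Fbln2 and 0.12 from Gpc3. Neurog2 differed between genotypes by 1.22 at 18 and 1.55 at 4 months. Pirt, Scimp and Hrh3, the histamine H3 receptor, completed the closest 5 of both genes, at distances of 0.31 to 0.48. Scimp was near its lower limit of measurement in WT, with levels of 0.00844 at 18 and 0.00654 at 4 months. The lowest level well above background on those arrays was 0.00760 at 18 and 0.00576 at 4 months.

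Mst1r and Scin had other neighbours in pattern. For Mst1r these were Gm14114 at 0.092, the collagen Col12a1 at 0.15, the cardiac troponin Tnnt2 at 0.21, the cadherin-related Cdhr3 at 0.22 and the Notch effector Hes1 at 0.33. Fbln2 ranked 37 and Gpc3 ranked 22 among matches of Mst1r, whereas Mst1r ranked 9 among the matches of each of them. Among the closest to Scin were Slamf8 at 0.25, Hes1 at 0.36, Bst1 at 0.39 and the chemokine Cxcl10 at 0.43, and Mst1r was the nearest of the other members to it, at rank 29. With 4 arrays, such a match rests on 4 values per gene, and a larger difference between genotypes leaves fewer genes to be close to.

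In the authors' 18-month columns, the values of these matched genes spread in both directions. Slamf8 and Bst1 were higher in hetero-KO there by 1.10 and 0.83 on the log2 scale. Neurog2 differed by 0.23, Hes1 by 0.42 and Hrh3 by 0.16, whereas Pirt differed by -1.14, Scimp by -0.42, Cxcl10 by -0.48 and Col12a1 by -0.12.

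**Figure D3:**
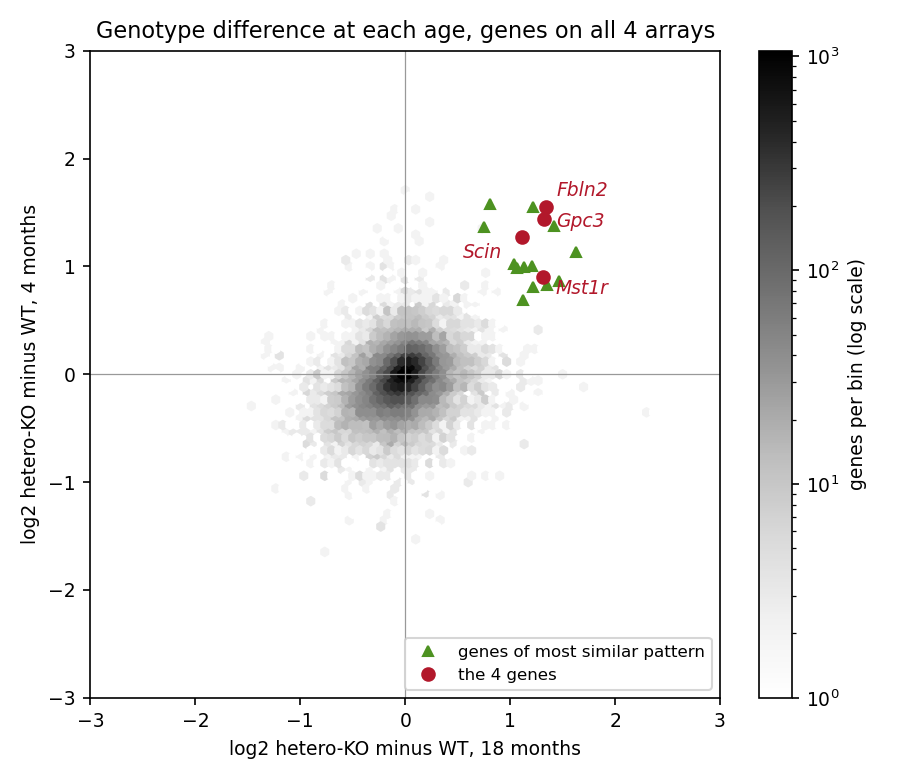
Log2 difference of hetero-KO minus WT at 18 months (horizontal) and at 4 months (vertical) for 27365 genes measured on all 4 arrays, binned in grey, of which 11 lie outside the axes. The 4 genes, in red, lie between 1.11 and 1.34 at 18 months and between 0.90 and 1.56 at 4 months, and the green triangles are the genes of most similar pattern.

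Few genes of the whole array passed the test for genotype, and none of the families and pathways of the 4 genes did. Of 120 related genes in 8 lists, 119 were on the array, and all of these were tested. None rose or fell in hetero-KO over both ages by limma with Benjamini-Hochberg adjustment, in which 0.0103% of all genes rose and 0% fell. A count of 0 among 119 is near that share and does not set these genes apart. The 4 genes themselves were chosen on this contrast, so their own outcome in this test is not given. Among the 119 related genes, the smallest limma adjusted p was 0.222. At an unadjusted p under 0.05, 11 were higher and 12 lower, together 19.3% against 11.4% of all genes tested. At least 2-fold apart at 18 months were 1.68% of them against 1.14% of all genes, and at 4 months 0% against 1.32%. Over all genes measured on all 4 arrays, 27.0% were higher and 34.9% lower at both ages, by any amount.

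Of the other fibulins, 2 of 6 were higher and 3 lower at both ages. Fbln7 differed by -0.52 at 18 and -0.30 at 4 months, the hemicentin Hmcn1 by -0.12 and -0.64, and the fibulin-3 gene Efemp1 by 0.40 and 0.057. Fbln5, an elastic fibre assembly protein, had opposite signs, 0.67 at 18 months and -0.17 at 4 months. The median of the 6 genes was 0.054 at 18 months and -0.15 at 4 months.

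Of 23 basement membrane and matrix partners of fibulin-2, 11 were lower and 1, the synapse-organising proteoglycan agrin, higher at both ages. Nid2, a nidogen that links laminin to collagen IV, differed by -0.56 at 18 and -0.46 at 4 months. Its levels were 0.168 in hetero-KO and 0.247 in WT at 18 months, and 0.189 in hetero-KO and 0.260 in WT at 4 months. The collagen Col18a1 differed by -0.39 and -0.33 and the laminin chain Lama5 by -0.31 and -0.38. Agrin, by its gene Agrn, differed by 0.12 and 0.13.

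Among glypicans and syndecans, 3 of 9 were higher and 3 lower at both ages. Gpc4, the glypican gene next to Gpc3 on the X chromosome, was lower in hetero-KO. Its levels were 0.718 in hetero-KO and 0.896 in WT at 18 months, and 0.630 in hetero-KO and 0.877 in WT at 4 months, with log2 differences of -0.32 and -0.48 (limma adjusted p = 0.232). Gpc1 differed by 0.34 and 0.12, the syndecan Sdc1 by -0.18 and -0.50, and Gpc6 by -0.31 and 0.61. No other glypican or syndecan was 2-fold apart at either age.

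Of 22 genes that build, trim or release heparan sulfate, 8 were higher and 6 lower at both ages. The sulfatases that remove sulfate groups from heparan sulfate went opposite ways. Sulf1 differed by -0.77 at 18 and -0.39 at 4 months, and Sulf2 by 0.23 and 0.33. The chain-building enzyme gene Ext2 differed by -0.070 and -0.32. Hpse, the heparanase, was the gene of the related lists that was at least 2-fold higher at 18 months, by 1.27, and it differed by -0.031 at 4 months.

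Glypican-3 is known to restrain hedgehog signalling, and IGF2 is another growth regulator long studied beside it. Of 18 hedgehog and IGF2 genes, 6 were higher and 8 lower at both ages. Shh, the hedgehog ligand, differed by 0.29 at 18 and 0.45 at 4 months and Dhh by 0.41 and 0.32. The growth factor gene Igf2 differed by -0.43 and -0.29. The hedgehog target genes Gli1 and Ptch1 differed by 0.20 and 0.38, and by -0.24 and -0.050.

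The gelsolin family beside Scin held 2 genes higher and 1 lower at both ages, of 7. Vil1, the villin of microvilli, differed by 0.22 at 18 and 0.39 at 4 months, gelsolin itself (Gsn) by 0.10 and 0.061 and Flii by -0.050 at both. Of 18 other genes for actin severing, capping and monomer binding, 3 were higher and 8 lower at both ages. The differences of the 3 named by size were small, with the capping subunit Capzb at -0.15 and -0.23, Coro1b at -0.053 and -0.18 and Capza1 at 0.14 and 0.093.

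The ligand side of Mst1r was near its lower limit of measurement. Mst1 had levels of 0.0125 in hetero-KO and 0.0103 in WT at 18 months, and 0.0140 in hetero-KO and 0.0110 in WT at 4 months, where the lowest level well above background on an array was 0.00576 to 0.00830. Its log2 differences were 0.28 and 0.35. Met, the sister receptor, had levels of 0.0668 in hetero-KO and 0.169 in WT at 18 months, and 0.0993 in hetero-KO and 0.0799 in WT at 4 months, differing by -1.33 and 0.31. The Met ligand gene Hgf differed by 0.16 and 0.45, and Hgfac, a protease that activates it, by -0.21 and -0.30. Of the 16 genes in this list, 3 were higher and 5 lower at both ages.

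**Figure D4:**
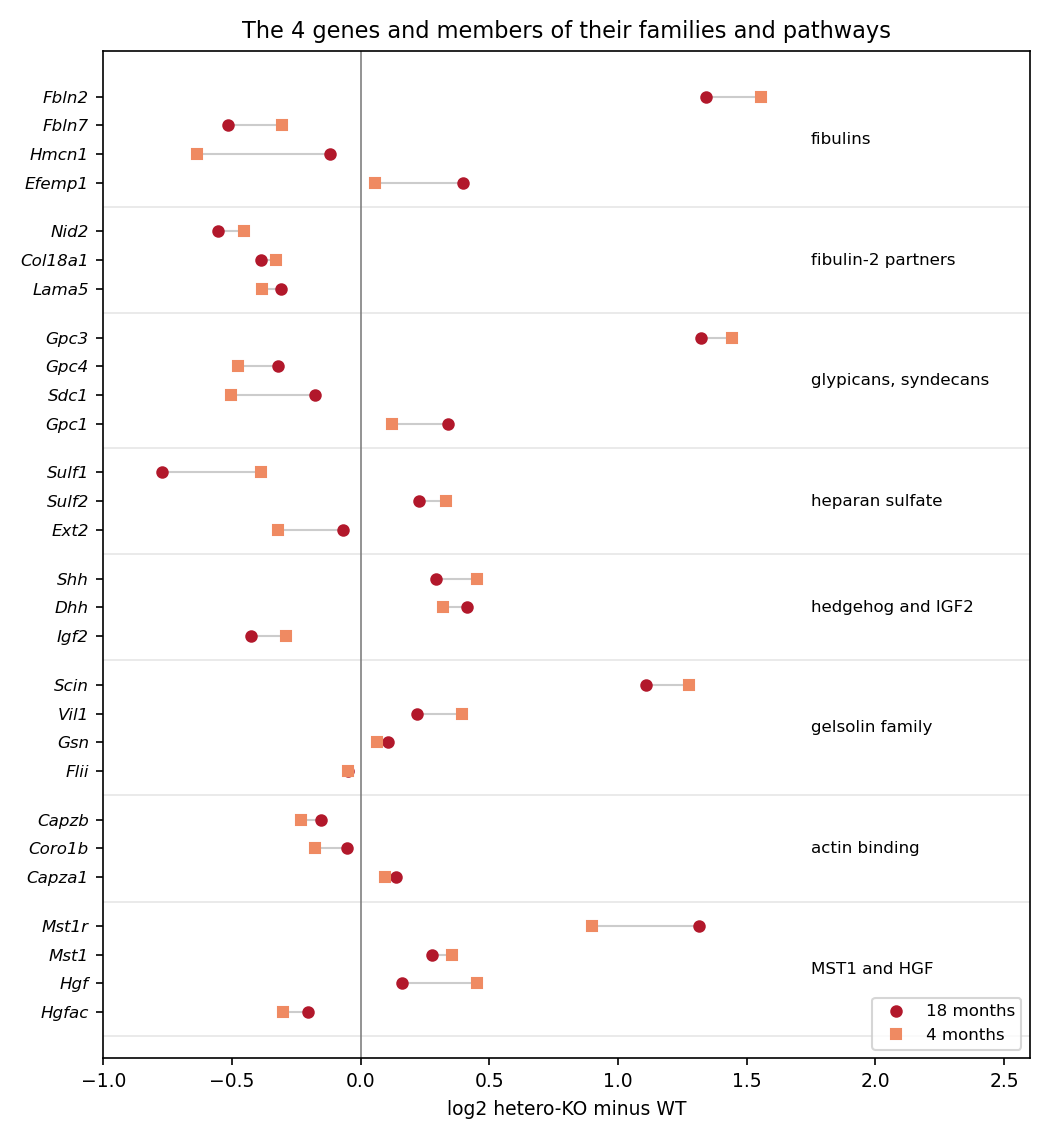
Log2 difference of hetero-KO minus WT at 18 months (circles) and 4 months (squares) for the 4 genes and the 3 members of each related list with the largest mean difference among those of one sign at both ages. Each of the 4 genes, which were chosen for this difference, stands to the right of the related genes shown, which lie between -0.77 and 0.45. Related genes of opposite signs at the 2 ages are not shown, among them Hpse at 1.27 and Met at -1.33 at 18 months.

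No measured protein-coding neighbour of the 4 genes on the chromosome was 2-fold apart at either age. Order was taken from the RefSeq gene table of assembly GRCm38.p6, with 2 genes on each side. Around Fbln2, the differences at 18 and 4 months were 0.22 and -0.0055 for Nup210, -0.050 and 0.051 for Hdac11, -0.58 and 0.47 for Wnt7a, and 0.015 and 0.018 for Chchd4. Around Gpc3, beside Gpc4, they were -0.021 and 0.23 for Ccdc160 and 0.056 and 0.11 for Phf6, whereas 1700080O16Rik was not well above background on any array. Around Scin, Etv1 gave -0.36 and 0.15, Arl4a -0.28 and -0.074, Lsmem1 0.27 and 0.51, and Ifrd1 0.17 and 0.21. Around Mst1r, Rbm6 gave 0.020 and 0.066, Mon1a -0.041 and 0.036, Actl11 -0.33 and -0.24, and Camkv 0.13 and 0.078.

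**Figure D5:**
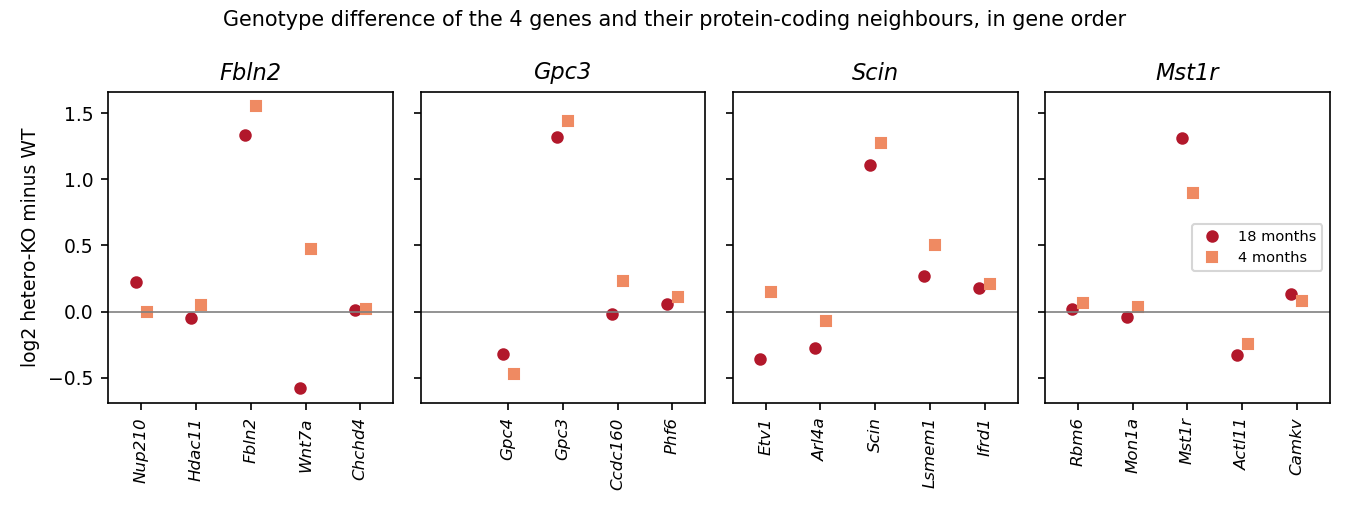
Log2 difference of hetero-KO minus WT at 18 months (circles) and 4 months (squares) for each gene and its protein-coding neighbours in chromosome order, 1 panel per gene, leaving out 1700080O16Rik. The gene of each panel, which was chosen for this difference, stands above its neighbours, which were taken by position and lie between -0.58 and 0.51.

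The promoters of the 4 genes are shown because Rp58 is a DNA-binding repressor. They were taken from RefSeq, build GRCm38.p6, each from 250 bases before to 50 after a gene's start, and are written 5′ to 3′ along the gene. The letters searched were CATCTG on either strand, the inner part of ACATCTG, which is a sequence Rp58 is known to bind. Both are forms of the E-box CANNTG that proneural factors bind. Capitals mark CATCTG, or its complement CAGATG where it lies on the other strand.
Fbln2, chr6:91212514-91212813, plus strand: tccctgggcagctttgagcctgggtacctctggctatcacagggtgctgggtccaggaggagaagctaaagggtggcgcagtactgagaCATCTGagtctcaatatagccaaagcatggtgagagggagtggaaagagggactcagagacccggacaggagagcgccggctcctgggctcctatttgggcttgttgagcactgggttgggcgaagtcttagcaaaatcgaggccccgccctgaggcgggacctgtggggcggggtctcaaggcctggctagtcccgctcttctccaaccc
Gpc3, chrX:52613925-52614224, minus strand: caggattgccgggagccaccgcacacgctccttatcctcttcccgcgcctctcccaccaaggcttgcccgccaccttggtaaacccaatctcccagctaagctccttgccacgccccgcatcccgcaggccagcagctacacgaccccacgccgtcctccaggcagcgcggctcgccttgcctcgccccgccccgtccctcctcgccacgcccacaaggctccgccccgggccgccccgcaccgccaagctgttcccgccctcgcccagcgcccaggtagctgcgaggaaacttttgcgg
Scin, chr12:40134179-40134478, minus strand: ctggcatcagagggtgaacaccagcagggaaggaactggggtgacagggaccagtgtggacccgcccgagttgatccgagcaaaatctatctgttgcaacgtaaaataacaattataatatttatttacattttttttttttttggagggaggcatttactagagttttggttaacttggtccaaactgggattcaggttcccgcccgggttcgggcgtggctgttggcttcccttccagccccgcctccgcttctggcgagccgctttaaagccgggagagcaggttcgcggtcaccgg
Mst1r, chr9:107906639-107906938, plus strand: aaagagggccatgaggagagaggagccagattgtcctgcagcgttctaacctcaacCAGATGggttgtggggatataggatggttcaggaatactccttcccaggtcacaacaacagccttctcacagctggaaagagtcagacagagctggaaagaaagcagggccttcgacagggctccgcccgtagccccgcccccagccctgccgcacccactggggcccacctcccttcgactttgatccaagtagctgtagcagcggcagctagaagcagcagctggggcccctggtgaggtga
The Fbln2 window held ACATCTG on the sense strand, with its CATCTG starting 161 bases before the start. The first Mst1r window held CATCTG on the antisense strand, 194 bases before the start, without the leading A, and a further Mst1r start in the table held no CATCTG. The Gpc3 and Scin windows held no CATCTG and no CANNTG. Of 32851 promoter windows of this length, 4.43% held ACATCTG, 17.2% held CATCTG and 72.3% held CANNTG. These matches describe letters in a window, and binding was not measured here. The windows ranged from 52.0% GC in Scin to 70.7% in Gpc3, which held 30 CpG pairs against 10 in Fbln2, 16 in Scin and 8 in Mst1r.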

How the data were processed

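RNA of 3 hippocampal samples a group was pooled for 1 Cy3 array, per the labels. Spot intensity was deposited by the authors as made with Agilent Feature Extraction 11.5.1.1, per the submitters' processing notes and the file headers, which give build mm9, background subtraction and surrogate values for dim spots. The authors' deposited table holds a linear ratio, and how it was made is not stated in the labels. Intensity was divided by the 75th percentile of the non-control spots without outlier marks of each array, and log2 was taken. Repeat spots were averaged. Measured means that 50% or more of a probe's spots passed the software's mark for signal well above background. Each gene was read from the probe of highest mean level. Symbols were updated by RefSeq accession without version (32994 of 56605 probes matched, 1535 symbols changed). The age and genotype terms were fitted to all 4 arrays with limma 3.58.1 in R 4.3.3 (eBayes with a variance trend, Benjamini-Hochberg adjustment) over 29086 genes measured on at least 2 arrays, and the fit was tested on simulated data. For 21 values of a probe on an array all spots carried an outlier mark, and these values were kept but not counted as measured. Precision is limited by the number of arrays, 1 a group. The members, lists and tests were chosen with earlier results of these data known. Named genes were Zbtb18, the 4 genes, the 5 closest in pattern to each (1 of these is not reported here), 2 protein-coding neighbours on each side, and in each of 8 related lists the 3 with the largest mean genotype difference among those of one sign at both ages. Agrn, Fbln5, Gpc6, Hpse, Gli1, Ptch1, Met, Tnnt1 and Shox2 were named after their values were seen. Alternatives were normexp background with an offset of 50, quantile normalization, scaling to the median of probes well above background, the mean of a gene's probes, other filters, no variance trend, no genotype term and the authors' table.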

Additional observations from a re-analysis of the deposited data

Results flagged for a closer look

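The following values had opposite signs in the groups set side by side, each with 1 array a group, and the difference between the groups was not tested. For Mst1r, 18 minus 4 months was 0.31 in hetero-KO and -0.11 in WT. For hetero-KO minus WT, at 18 and at 4 months, Zbtb18 gave 0.18 and -0.20, Fbln5 gave 0.67 and -0.17, Gpc6 gave -0.31 and 0.61, Hpse gave 1.27 and -0.031, and Met gave -1.33 and 0.31. Among chromosomal neighbours, Wnt7a gave -0.58 and 0.47, Etv1 -0.36 and 0.15, Nup210 0.22 and -0.0055, Ccdc160 -0.021 and 0.23, Hdac11 -0.050 and 0.051, and Mon1a -0.041 and 0.036. Of these, Wnt7a, Gpc6 and Met exceeded 0.30 in size at both ages. The median of meningeal fibroblast markers was 0.40 at 18 and -0.28 at 4 months, and that of striatum markers -0.024 and 1.55.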

How the results depend on the processing

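No paired analysis was possible because each group holds 1 array and the labels give no replicate numbers. Genotype differences kept their sign under every alternative on the scanner files, and moved by more than the spot error in 6 cases. With normexp background Gpc3 gave 1.07 at 18 and 1.21 at 4 months, and Scin 0.87 and 0.97. The mean of its probes, which averages in the dim probe, gave Gpc3 0.71 and 0.81. In the authors' table at 18 months, Fbln2 gave 0.91, Mst1r 0.66, Gpc3 -0.14 and Scin -0.35, and the cause was not tested. For age, that table reversed Fbln2 (0.14), Scin (-3.02, limma adjusted p = 0.00624) and Mst1r (-0.27), gave Gpc3 -1.42 (limma adjusted p = 0.0448), and the mean of probes gave Gpc3 0.056. Scin passed with normexp background (0.57, limma adjusted p = 0.0309) and among genes measured on all 4 arrays (0.67, 0.0444), where fewer genes were tested. No related gene passed for genotype under any alternative. Over all genes, 317 rose and 163 fell with age in limma. The counts were 1058 and 291 with normexp, 651 and 227 with genes on all 4 arrays, 52 and 115 with quantile normalization, 54 and 67 without the genotype term, 4 and 10 with the mean of probes, 4592 and 5287 in the authors' table, and 0 and 0 both without the filter and without the trend. Genotype calls over all genes, 3 higher and 0 lower, were 9 and 5 with normexp, 8 and 2 with genes on all 4 arrays, 2 and 0 with quantile normalization, 1 and 0 with the mean of probes, 1 and 7 in the authors' table, and 0 and 0 without the filter or the trend.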
